A study of Mus musculus with 4 samples.

Results

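Protocadherins are cell adhesion molecules of the cadherin superfamily that neurons and many other embryonic cells carry on their surface. The clustered genes lie in 3 neighbouring groups, alpha, beta and gamma. In the alpha and gamma clusters each gene has its own first exon and shares the last exons with the rest of its cluster, whereas each beta gene is a single exon of its own. Neurons are known to use a different mix of clustered genes from cell to cell. The non-clustered genes stand alone in the genome, are divided into delta1 and delta2 types and a few others, and act in cell sorting, axon growth and somite formation.

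RNA of whole C57BL/6 embryos was hybridized to 4 one-colour Agilent arrays of 1 slide. The groups were WT at E8.5 (embryonic day 8.5), *Dyrk2* knockout at E8.5, WT at E10.5 and *Dyrk2* knockout at E10.5, with 1 array each. The knockout alleles are small deletions made by injecting the CRISPR/Cas9 nickase into fertilized eggs, and the deletion carried by these embryos and the number of embryos in each RNA are not given in the sources used here. Members were chosen by the gene name in the array annotation, which starts with Pcdh in 48 of 37074 named genes and 73 of 56605 probes. They comprise 7 alpha, 22 beta and 7 gamma genes and 12 single genes. RefSeq (GRCm38) holds 14 alpha, 22 beta and 22 gamma genes, so many alpha and gamma genes have no probe under their own name. The accession of 66 of the 73 probes was found in the RefSeq table, with the same symbol in all 66. Each value is the log2 signal of a probe relative to the 75th percentile of its array, so that 0 is the level of that percentile, and a gene is represented by its brightest probe.

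*Dyrk2* itself, read by its brightest probe, was at 0.06 in WT embryos of E8.5 and at 0.76 on the array labelled *Dyrk2*-/- of that stage. At E10.5 the values were −0.31 in WT and 0.34. The transcript was thus higher on both arrays labelled *Dyrk2*-/-, by 1.62-fold at the earlier and 1.57-fold at the later stage. This does not check the genotype labels, and every direction between genotypes given here rests on them.

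Most clustered protocadherins on the array were dim. A probe was counted as measured on an array where the scanner software marked it as well above background. Of the 48 genes, each E8.5 array measured 12, while at E10.5 WT measured 22 and the array labelled *Dyrk2*-/- 21. These are 25.0%, 25.0%, 45.8% and 43.8% of the family, beside 54.9%, 53.0%, 55.5% and 55.8% of all named genes in the same order. On no array were 26 members measured by any of their probes, namely 5 alpha, 14 beta and 6 gamma genes and *Pcdh15*. At both E10.5 arrays and at neither E8.5 array, 9 members were measured (18.8%, beside 2.10% of all named genes), and none showed the opposite, beside 0.893% of all named genes. In RNA of whole embryos, fewer cells of a type and less RNA per cell cannot be told apart.

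The stages were compared with limma over all 4 arrays, with genotype in the model and 2 arrays per stage. Among the 21 protocadherin genes that could be tested, 15 rose and 3 fell from E8.5 to E10.5, beside 17.2% and 20.5% of the 20901 named genes tested. The balance over all genes depends on the scaling, as 45.7% of the calls were rises here, 79.1% with spike-in scaling and 74.6% with no scaling. Genes measured only at E10.5 entered the test through the stage at which they were high, so the count over all 21 says little about the family. Among the 12 members measured on all 4 arrays, 6 rose and 3 fell, beside 15.1% and 21.0% of the 18686 named genes measured on all 4. The 2 arrays of each genotype, which limma also used, were then set against each other at 1.5-fold. Within WT, 17 protocadherins were 1.5-fold or more higher at E10.5 and 2 were lower, beside 18.8% and 17.5% of the 21643 named genes compared. Of the 12 measured on both WT arrays, 7 were higher and 2 lower, beside 2900 and 2905 of 19296 named genes measured on both, and the rest had entered through E10.5. Between the 2 arrays labelled *Dyrk2*-/-, 14 were higher and 2 were lower, beside 17.6% and 13.9% of the 21266 named genes compared. Of the 12 measured on both, 5 were higher and 2 lower, beside 2428 and 2396 of 19046. With 1 array per group these 4 counts have no test, and the difference between the stage effects of the genotypes was not tested.

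The delta2 genes held the largest rise among single genes measured on all 4 arrays. *Pcdh10*, an adhesion molecule of growing axons, had log2 values of −4.15 in WT and −4.11 on the array labelled *Dyrk2*-/- of E8.5. The E10.5 values, WT first as in all pairs given here, were −0.71 and −0.97. Both E10.5 arrays were far above both E8.5 arrays, and the rise was 9.77-fold (log2 difference 3.29 ± 0.21 SE, limma adjusted p = 6.59e-06). With normexp, whose offset of 50 is added to every signal and compresses dim values, the log2 difference was 1.62. Its 2 other measured probes, for further transcripts of the gene (chromosome 3 of mm9, 45186257 to 45186316 and 45227467 to 45227526), rose as well. The first had a limma adjusted p of 2.36e-05. It was not measured on the E8.5 array labelled *Dyrk2*-/-, so its test rests in part on background. The other was measured on neither E8.5 array, and its rise is a bound of at least 4.12-fold. A bound sets the mean of the bright arrays against the higher of the dim value and the lowest signal well above background on each dim array.

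*Pcdh17*, which acts in axon extension and synapse assembly, had log2 values of −1.65 and −1.22 at the earlier stage and of 1.22 and 1.12 at the later. The stages did not overlap, and the rise was 6.09-fold (2.61 ± 0.16 SE, limma adjusted p = 6.57e-06). *Pcdh8*, also called paraxial protocadherin for its place in the forming somites, had values of 0.31 and 0.997 at E8.5, then 1.83 and 1.68 at E10.5. It rose 2.14-fold (SE of the log2 difference 0.19, limma adjusted p = 0.00203), and the array labelled *Dyrk2*-/- lay between WT at E8.5 and both E10.5 arrays. The call was lost with spike-in scaling and without the intensity trend. *Pcdh18* was at 2.25 and 2.02 at E8.5, then 3.18 and 3.13 at E10.5, a rise of 2.03-fold (1.02 ± 0.12 SE, limma adjusted p = 0.000288), not called with spike-in scaling.

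*Pcdh19*, an X-linked gene whose loss causes epilepsy in humans, was the delta2 gene that fell. Its values were 1.74 and 1.64 at E8.5, then 1.36 and 1.09 at E10.5, so that the stages did not overlap but lay close together. The fall was 1.38-fold (limma adjusted p = 0.0206) and that of its other probe 1.34-fold (adjusted p = 0.0424). Without the intensity trend, without scaling between arrays or with spike-in scaling *Pcdh19* was no longer called.

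RefSeq (GRCm38.p6) promoters were searched for 9 of the protocadherins, all of them single genes, with 10 entries and repeated entries for *Pcdh9*. The clustered genes and the single genes *Pcdh1*, *Pcdh11x* and *Pcdh12* were not in the search, so the motif counts do not describe the whole family. The 250 bases before each start were searched on both strands for the letters TATAAA, known as the TATA box where they lie close to a start, for those of the CCAAT box and, as the GC box, for GGGCGG. The CCAAT box stood in 9 of the 10 entries, beside 33.8% of all 32851 promoters, the GC box in 4 beside 32.7%, and the TATA box in 2 beside 12.4%. Of the delta2 genes, *Pcdh10*, *Pcdh17*, *Pcdh18* and *Pcdh19* each held the CCAAT box and the GC box, so that *Pcdh19*, which fell, held the same boxes as 3 genes that rose. *Pcdh8* held the TATA box and the CCAAT box. A match is a description of letters and not a bound site. Capitals mark the motifs, on either strand, in *Pcdh10* (chr3:45378148-45378397, plus strand), *Pcdh17* (chr14:84443313-84443562, plus strand) and *Pcdh8* (chr14:79771313-79771562, minus strand).
Pcdh10: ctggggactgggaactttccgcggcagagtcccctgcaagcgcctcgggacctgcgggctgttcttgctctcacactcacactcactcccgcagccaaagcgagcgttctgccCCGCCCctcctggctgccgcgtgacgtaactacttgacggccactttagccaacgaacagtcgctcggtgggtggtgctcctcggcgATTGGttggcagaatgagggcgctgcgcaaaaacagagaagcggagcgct
Pcdh17: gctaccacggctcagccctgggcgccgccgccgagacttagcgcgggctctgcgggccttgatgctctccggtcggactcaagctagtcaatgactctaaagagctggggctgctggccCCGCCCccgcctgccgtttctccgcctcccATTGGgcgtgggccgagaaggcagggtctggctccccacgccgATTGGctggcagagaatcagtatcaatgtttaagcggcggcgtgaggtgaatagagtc
Pcdh8: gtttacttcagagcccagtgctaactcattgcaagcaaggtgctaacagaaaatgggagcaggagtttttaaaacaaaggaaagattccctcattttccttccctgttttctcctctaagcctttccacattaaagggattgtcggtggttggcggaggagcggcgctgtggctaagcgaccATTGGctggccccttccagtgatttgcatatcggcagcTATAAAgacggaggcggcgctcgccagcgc

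The delta1 genes went in different directions. *Pcdh9* was not measured at E8.5, with values of −6.30 and −6.71, and was at −2.78 and −3.25 at E10.5. It was at least 3.16-fold higher at E10.5, although with normexp its log2 difference was 0.62. It entered the limma test through E10.5 alone, so its call there is not given as support. *Pcdh1*, an adhesion molecule of epithelia and vessels, fell from 0.65 and 0.72 to −0.22 and −0.33, or 1.94-fold (−0.96 ± 0.14 SE, limma adjusted p = 0.000819). It was higher on both E8.5 arrays than on both E10.5 arrays, and was not called with spike-in scaling.

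*Pcdh7* fell at its brightest probe (chromosome 5 of mm9, 58120201 to 58120260), from −0.70 and −0.76 to −1.73 and −1.58, which is 1.89-fold (limma adjusted p = 0.00229). That probe is annotated to NM_018764. The 2 probes of another transcript, NM_001122758, were not called, with adjusted p of 0.414 and 0.938. The nearer to the end of the gene (58523063 to 58523122) read −1.44 and −1.57 at the earlier stage and −1.45 and −1.52 at the later, so that the probes of *Pcdh7* disagreed, and their mean was not called. The brightest probe was not called with spike-in scaling.

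*Pcdh11x* on the X chromosome also had probes that disagreed. Its brightest probe was at −3.16, −3.15, −3.03 and −3.03 in the order WT and labelled *Dyrk2*-/- at E8.5, then at E10.5, and was not called (limma adjusted p = 0.709). A further probe of the gene had −4.72 and −5.69 at E8.5, the second not measured, and −3.44 and −4.07 at E10.5. It was called higher at E10.5 (adjusted p = 0.0183).

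Of the other single genes, *Pcdh12*, which marks endothelium, went from −1.04 and −0.44 at E8.5 to 0.72 and 0.33 at E10.5. It rose 2.41-fold (1.27 ± 0.21 SE, limma adjusted p = 0.00204), with no overlap between the stages, and was not called with spike-in scaling or without the trend. *Pcdh20* was not measured at E8.5, with −5.98 and −5.01, and was at −2.79 and −3.29 at E10.5, at least 3.11-fold higher, with a log2 difference of 0.51 under normexp, and it too entered the test through E10.5 alone. None of the 7 probes of *Pcdh15*, a component of the tip links of hair cells, was measured, and the values of its brightest ranged from −5.66 to −4.95.

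**Figure D1:**
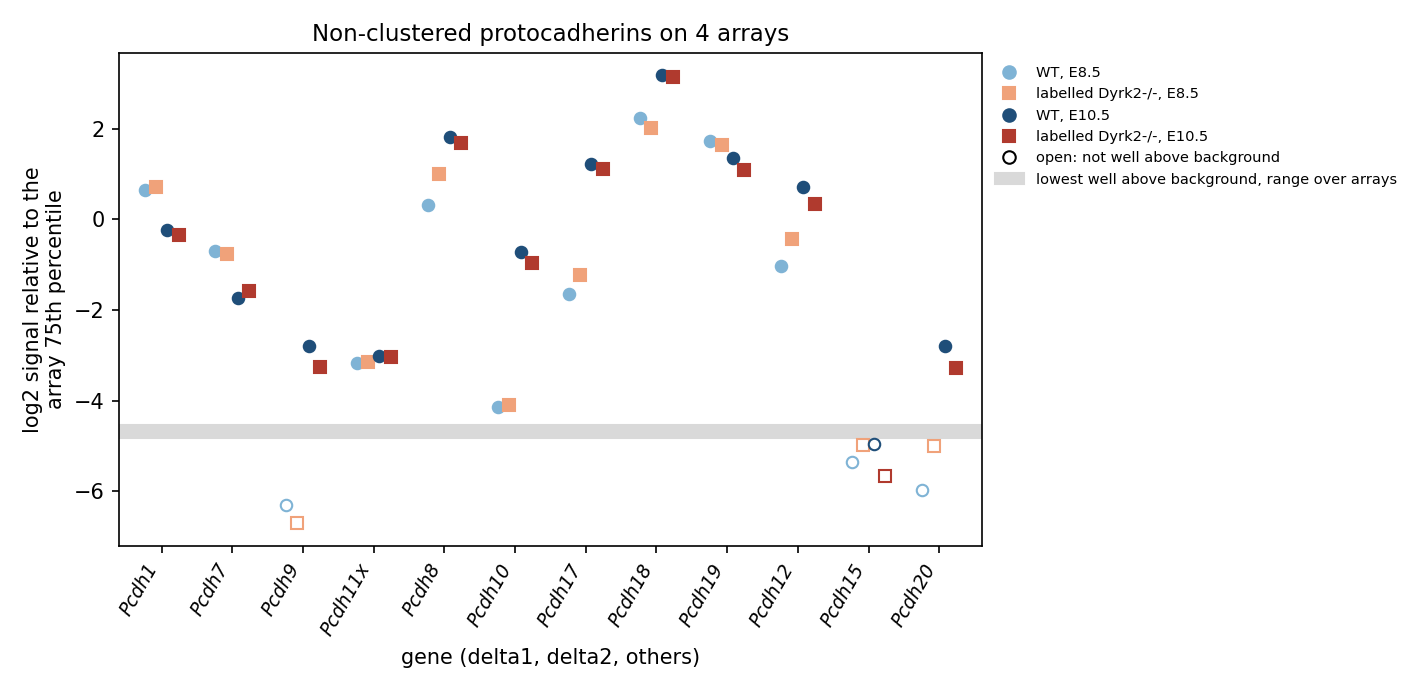
Log2 signal of the 12 non-clustered protocadherins relative to the array 75th percentile (vertical axis), 1 point per array, with circles for WT, squares for arrays labelled *Dyrk2*-/-, light colours for E8.5, dark colours for E10.5 and open points where the probe was not well above background. *Pcdh10* lies near −4.15 at E8.5 and between −0.97 and −0.71 at E10.5, *Pcdh1* lies lower at E10.5 than at E8.5, and all 4 points of *Pcdh15* are open; the grey band spans the lowest signals well above background on the 4 arrays.

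No beta gene was measured at E8.5. At E10.5, 7 of the 22 were measured on both arrays, *Pcdhb4*, *Pcdhb6*, *Pcdhb7*, *Pcdhb17*, *Pcdhb20*, *Pcdhb21* and *Pcdhb22*, and *Pcdhb3* on the WT array alone. The other 14 lay between −7.13 and −4.87 on all arrays. All 7 were called higher at E10.5 by limma, but they entered that test through E10.5 alone, so their calls are not given as support.

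*Pcdhb21* was at −7.08 and −4.58 at E8.5, neither of them measured, and at −2.09 and −1.85 at E10.5. It was at least 6.52-fold higher at E10.5. *Pcdhb22* had −6.91 and −6.81 at E8.5, then −3.56 and −3.34 at E10.5, at least 2.33-fold higher. Both E10.5 arrays showed these genes in either genotype. *Pcdhb17* had −7.10 and −6.76 at E8.5, then −3.94 and −3.91 at E10.5, at least 1.68-fold higher. For the other 4 the bounds ran from 1.35-fold for *Pcdhb7* to 1.66-fold for *Pcdhb20*. Between the arrays labelled *Dyrk2*-/- alone *Pcdhb7* has no bound. These bounds hold for the 75th percentile scaling. With normexp the log2 differences of *Pcdhb21*, *Pcdhb22* and *Pcdhb17* were 1.08, 0.43 and 0.36, below their bounds.

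The measured beta genes were not spread evenly along the cluster on chromosome 18 of mm9. *Pcdhb3* and *Pcdhb4* (37463364 to 37470083) and *Pcdhb6* and *Pcdhb7* (37495897 to 37504389) lie near its start. *Pcdhb17* (37647758 to 37647817) and the run from *Pcdhb20* to *Pcdhb22* (37666914 to 37680728) lie at its end. The 9 genes between, from *Pcdhb8* to *Pcdhb16* (37517204 to 37642185), had no measured probe, nor had *Pcdhb1*, *Pcdhb2*, *Pcdhb5*, *Pcdhb18* and *Pcdhb19*. Probes can differ in how well they bind, so a dim probe does not show that its gene is silent.

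**Figure D2:**
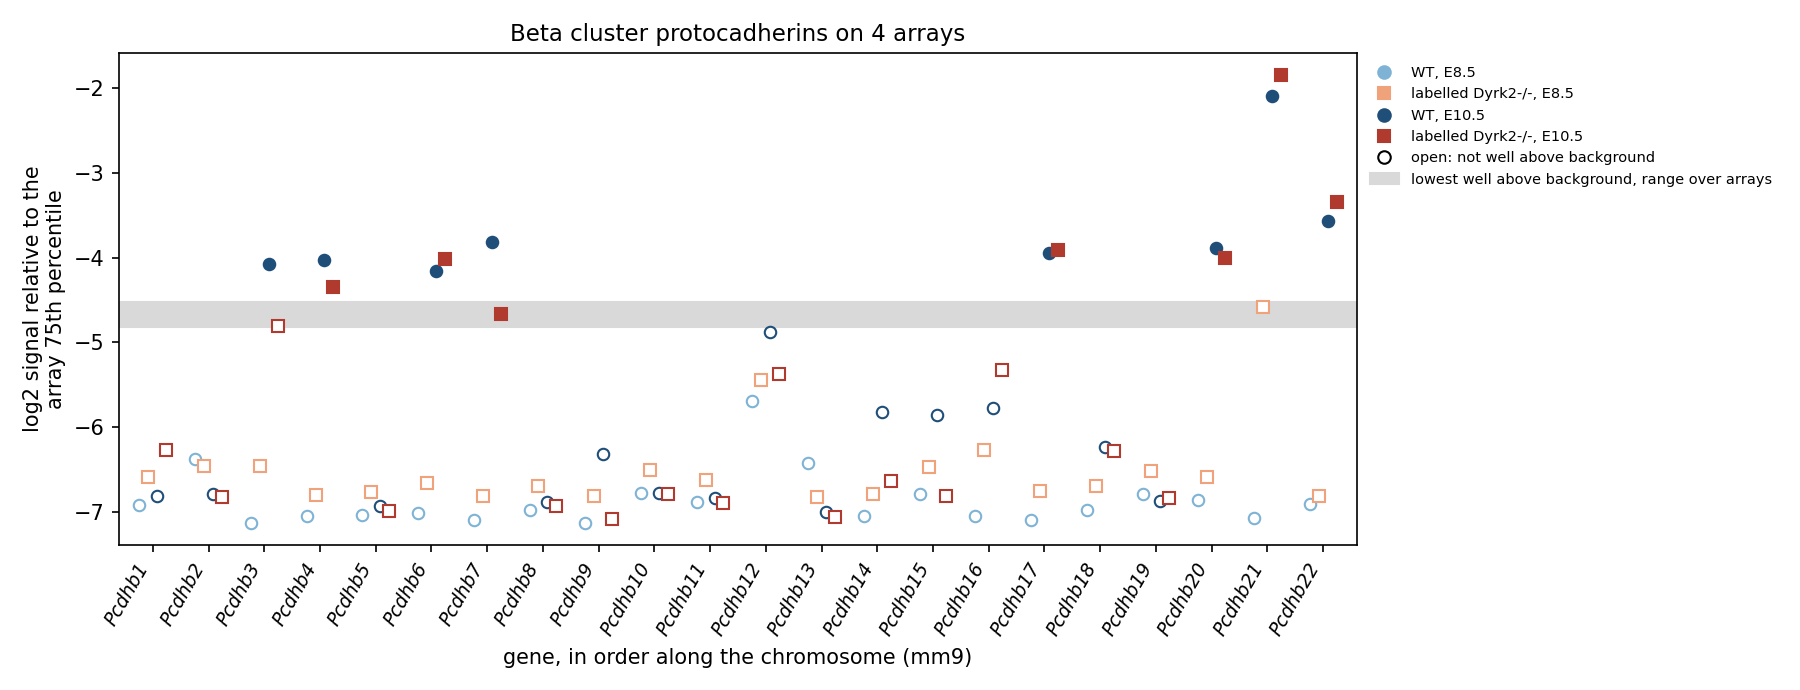
Log2 signal of the 22 beta cluster genes relative to the array 75th percentile (vertical axis), in their order along the chromosome, 1 point per array, with the symbols and the grey band of the plot of single genes. Filled points, measured well above background, occur at E10.5 for *Pcdhb3*, *Pcdhb4*, *Pcdhb6* and *Pcdhb7* and for *Pcdhb17* and *Pcdhb20* to *Pcdhb22*, while the 9 genes from *Pcdhb8* to *Pcdhb16* have open points alone.

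In the alpha cluster only *Pcdha8* and *Pcdhac2* of the 7 genes on the array were measured, both on all 4 arrays. *Pcdhac2*, a C-type gene, which in neurons is known to be used without the random choice of the other members, read −2.69 and −2.90 at E8.5, then −1.92 and −2.39 at E10.5. It was called 1.56-fold higher at E10.5 (0.64 ± 0.21 SE, limma adjusted p = 0.0371), but not under 6 of the 9 other limma settings. Its second probe gave 1.69-fold (adjusted p = 0.0334). *Pcdha8* read −2.98 and −3.45 at E8.5, then −3.48 and −3.35 at E10.5, with overlapping stages and no call (adjusted p = 0.614). The other C-type gene of this cluster, *Pcdhac1*, lay between −6.99 and −6.74 and was not measured.

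The 2 probes of *Pcdhac2* (37344758 to 37344817 and 37347235 to 37347294) lie 94808 bases beyond the probe of *Pcdhac1* and are the last of the alpha probes along the chromosome. The gamma cluster showed the same layout. Its only measured probes, the 2 of *Pcdhga9* (37999725 to 37999784 and 38001378 to 38001437), lie 20480 bases beyond the probe of the C-type gene *Pcdhgc5*, which is the last gene of the cluster to have its own first exon. In RefSeq (GRCm38) the ends of the alpha genes span 1240 bases and those of the gamma genes 1384. The *Pcdhga9* probes, beyond the last own first exon, thus read exons shared by the gamma cluster and not *Pcdhga9* alone. Whether the *Pcdhac2* probes read shared alpha exons was not tested. The values given for *Pcdhac2* and *Pcdhga9* are those of the probes annotated so.

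The brightest *Pcdhga9* probe had 4.22 and 4.69 at E8.5, then 4.90 and 4.66 at E10.5. The stages overlapped, and the probe was not called (0.32 ± 0.16 SE, limma adjusted p = 0.154), although quantile normalization, the deposited table and no scaling each called it higher. The other probe had −1.98, −1.30, −0.98 and −1.32 and was not called either (adjusted p = 0.131). The remaining 6 gamma genes on the array, *Pcdhgc5* included, lay between −7.10 and −5.30.

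Markers of cell types were compared between the stages as well. The limma counts of every marker list stand beside 17.2% of named genes tested called higher at E10.5 and 20.5% called lower. Of 12 neuronal markers 11 were called higher at E10.5, the summed signal of the list (in units of the array 75th percentile) was 27.7 and 20.7 at E8.5, then 122.2 and 80.8 at E10.5, and *Stmn2* was its brightest gene by mean signal over the 4 arrays, as brightest is meant for all lists. *Dcx* and, on the array labelled *Dyrk2*-/-, *Syt1* and *Chat* were not measured at E8.5, and *Dcx*, among the 11, entered the test through E10.5 alone. Of 8 neural progenitor markers 4 were higher and none lower, with sums of 48.5, 53.8, 128.9 and 107.6 in the same order and *Hes5* brightest, though *Sox3* was brighter at E8.5. All 8 were measured on every array.

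Among 9 markers of presomitic mesoderm and somites, where *Pcdh8* is known to act, 5 fell and 1 rose by limma. Their sums were 29.7, 34.5, 22.0 and 18.1, *Meox1* was brightest, though *Dll3* was brighter on the WT E10.5 array, and the defining genes *Msgn1* and *Mesp2* were not measured at E10.5, so that 2 of the 5 falls entered the test through E8.5 alone. Of 8 endothelial markers, the cells of *Pcdh12*, 3 rose and 2 fell, beside 17.2% and 20.5% of named genes. Their sums were 13.8, 17.4, 18.8 and 17.5, with *Kdr* brightest. The part of these markers in the protocadherin differences was not tested.

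The genotypes were compared at E8.5 first. Of 12 protocadherin genes measured on at least 1 of the 2 arrays, 2 were 1.5-fold or more higher on the array labelled *Dyrk2*-/- and none was lower, beside 5.14% and 6.50% of 20709 named genes. The median log2 difference of the 12 was 0.03, beside −0.02 over all named genes. *Pcdh8* was 1.61-fold higher, and its second probe, with −1.20 and −0.51, also gave 1.61-fold. *Pcdh12* was 1.52-fold higher. With spike-in scaling, which moved the median of all probes by −0.56, the log2 differences of *Pcdh8* and *Pcdh12* became 0.12 and 0.04, so that neither passed the threshold and the counts were 0 higher and 5 lower, and without scaling they were 0.43 and 0.34. *Pcdh12* also missed the threshold with quantile normalization and the deposited table, at 0.55 each, and with normexp, at 0.50.

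Of the genes not past the threshold at E8.5, *Pcdh17* was 1.35-fold higher on the array labelled *Dyrk2*-/- and *Pcdhga9* 1.38-fold at its brightest probe and 1.60-fold at the other. With spike-in scaling the differences of *Pcdh17* and *Pcdhga9* changed sign, to −0.13 and −0.10 in log2. *Pcdha8* was 1.39-fold lower, *Pcdh18* 1.18-fold and *Pcdhac2* 1.16-fold lower, and these kept their sign under every scaling, although *Pcdhac2* came to 0.02 in log2 with normexp. *Pcdh10*, *Pcdh11x*, *Pcdh1*, *Pcdh7* and *Pcdh19* had log2 differences between −0.10 and 0.07. Blood markers set the E8.5 arrays apart. The 7 erythrocyte markers on the array were all 1.5-fold or more higher on the array labelled *Dyrk2*-/-, their summed signal was 15.0 on the WT array and 323.4 on the other, and *Hbb-bh1* was brightest, though *Hbb-y* was brighter at E10.5. At E10.5 the sums were 1098 and 1292, with 4 of the 7 markers higher, and by limma all 7 rose between the stages.

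Of 8 markers of yolk sac endoderm 6 were lower on the E8.5 array labelled *Dyrk2*-/-, with sums of 51.0 and 33.1 at E8.5, then 20.8 and 17.2 at E10.5, *Afp* being the brightest, though *Rbp4* was brighter at E8.5. By limma 7 of them fell between the stages and 1 rose. *Apoa4*, among the falls, was not measured at E10.5 and entered through E8.5 alone. *Amn* was not measured on the E10.5 array labelled *Dyrk2*-/-. Of 7 trophoblast and decidua markers on the array, 4 were measured at E8.5, 2 of them higher and 2 lower, with sums of 15.6, 10.3, 18.5 and 22.7. Of the 3 tested by limma, 2 rose and 1 fell between the stages, the latter being *Prl8a2*, which entered through E8.5 alone. *Gcm1* was brightest, and *Tpbpa* and *Syna* were not measured on any array. Their part in the differences of *Pcdh8* and *Pcdh12* was not tested. The endothelial list had 1 of 8 genes past the threshold at E8.5, higher, and a median log2 difference of 0.30. The somite list had 1 of 9 higher and 1 lower, the neuronal list 3 of 11 lower and the progenitor list 1 of 8 lower. All marker counts at E8.5 stand beside 5.14% of named genes higher and 6.50% lower. Of the 3 neuronal genes only *Nefm*, 2.21-fold lower, was measured on both arrays, as *Chat* has a bound of 1.08-fold and *Syt1* none.

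At E10.5, 22 protocadherin genes were measured on at least 1 array of the pair. None was 1.5-fold or more higher on the array labelled *Dyrk2*-/- and 2 were lower, beside 3.50% and 4.22% of 21209 named genes. Of all named genes past the threshold, 45.4% were higher, but 69.2% with spike-in scaling and 28.9% with no scaling. The median log2 difference was −0.13, beside 0.00 over all named genes. *Pcdhb7*, at −3.82 on the WT and −4.66 on the other array, was 1.80-fold lower, and *Pcdhb3*, at −4.07 and −4.81 with the second not measured, was at least 1.62-fold lower. With spike-in scaling *Pcdhb3* was at −0.581 in log2, short of the threshold at 0.585. With the normexp background correction neither gene passed it, and the difference of *Pcdhb7* was −0.20 in log2. The neighbour *Pcdhb6* was higher by 0.14 in log2, *Pcdhb21* by 0.24, *Pcdhb22* by 0.23 and *Pcdhb17* by 0.04, while *Pcdhb4* was at −0.31 and *Pcdhb20* at −0.12, so the measured beta genes differed in sign. Spike-in scaling, which moved the median of all probes by 0.16, brought *Pcdhb20* to 0.04, and no scaling, which moved it by −0.13, brought *Pcdhb17* to −0.09. With normexp *Pcdhb4* and *Pcdhb20* changed sign, to 0.015 and 0.006.

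Some genes passed the threshold at E10.5 only at a probe that did not represent them. The second probe of *Pcdhac2*, at −1.89 and −2.78, was lower by 1.85-fold where labelled *Dyrk2*-/-, and the brightest by 1.39-fold. The third measured probe of *Pcdh10*, at −2.32 and −2.94, was 1.53-fold lower and the brightest 1.20-fold lower. The second probe of *Pcdh11x* was 1.54-fold lower, where the brightest differed by −0.01 in log2. Probes measured on 1 array of the pair went both ways, a further *Pcdh1* probe at −6.38 and −4.62 being at least 1.07-fold higher and a further *Pcdh9* probe at −4.36 and −6.62 at least 1.33-fold lower. By their brightest probes, *Pcdh20* and *Pcdh9* were 1.41-fold and 1.38-fold lower, *Pcdh12* 1.31-fold, *Pcdh19* 1.20-fold and *Pcdhga9* 1.18-fold lower. *Pcdh8*, *Pcdh17*, *Pcdh18* and *Pcdh1* had log2 differences between −0.14 and −0.05, which became positive with spike-in scaling, and *Pcdh7* and *Pcdha8* were higher by 0.15 and 0.14.

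Beside these values, 5 of the 12 neuronal markers passed 1.5-fold at E10.5, all of them lower where labelled *Dyrk2*-/-, with a median log2 difference of −0.57. The neural progenitor markers had none past the threshold and a median of −0.13, and of the 7 somite markers measured 1 was lower. Of the 8 endothelial markers none passed, with a median of −0.08. Genes of the sex chromosomes set that array apart from the other 3. *Xist* was measured on it alone, at −0.37, and *Ddx3y*, *Eif2s3y*, *Kdm5d* and *Uty*, all Y-linked, were measured on every array but it. *Pcdh11x* and *Pcdh19* are X-linked, and the part of this difference, and of the neuronal markers, in the protocadherin values was not tested.

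Over both stages, no protocadherin was called between genotypes by limma among the 21 tested, beside 6 of 20901 named genes (0.0287%). At an unadjusted limma p under 0.05 there was 1 member, *Pcdhb21* (adjusted p = 0.912), beside 1590 of all 32289 probes tested. That member count is by gene. Of the 32 protocadherin probes tested, the second of *Pcdhac2* also had an unadjusted limma p under 0.05 (0.0296, log2 difference −0.60). *Pcdhb21* was not measured at E8.5, so its genotype value rests in part on background. It was called without scaling between arrays, where 114 probes were called higher and 615 lower, against 4 and 2 with the 75th percentile. With 2 arrays per genotype and 1 residual degree of freedom, the absence of a call does not show that the genotypes were alike.

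Regulators of the clusters were measured throughout. Of 18 genes on the array (19 listed, without *Wapl*) for factors that loop, methylate or silence these clusters, 1 rose and 4 fell between the stages, beside 17.2% and 20.5% of all named genes tested. *Dnmt3b*, the methyltransferase of early embryos that methylates clustered protocadherin promoters, had 5.54 and 5.18 at E8.5, then 3.22 and 3.37 at E10.5, a fall with a log2 difference of −2.07 ± 0.14 SE (limma adjusted p = 1.09e-05). *Dnmt3a* had 0.66 and 0.96 at E8.5, then 2.84 and 2.48 at E10.5 and rose by 1.85 ± 0.17 SE (adjusted p = 5.00e-05). *Dnmt3b* was thus higher at E8.5 than at E10.5, and *Dnmt3a* the reverse. At E10.5 the *Dnmt3b* probe still read above that of *Dnmt3a* on both arrays. The smaller falls were those of *Smc3*, *Pds5b* and *Tet1*, and *Ctcf*, which anchors the promoter loops, was not called (adjusted p = 0.139). Between genotypes, *Rad21*, a cohesin subunit, was lower by 1.56-fold at E8.5 where labelled *Dyrk2*-/-, and no other regulator passed 1.5-fold at either stage. Of all named genes compared, 5.14% were higher and 6.50% lower in the E8.5 pair. In the E10.5 pair these shares were 3.50% and 4.22%.

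Of 16 genes for binding partners of protocadherins and their signaling, 15 were measured, and 3 rose and 5 fell between the stages, beside the same 17.2% and 20.5%. *Cyfip2*, a subunit of the WAVE complex that *Pcdh10* and *Pcdh17* are known to recruit, rose by 0.72 ± 0.13 SE (limma adjusted p = 0.00312), and *Cdk5* and *Taok2* rose too. *Ptk2b*, a kinase that alpha and gamma protocadherins inhibit, fell from 0.57 and 0.43 to −1.11 and −0.99 (−1.55 ± 0.15 SE, adjusted p = 6.69e-05). *Ret*, *Dab1*, *Set* and *Rac1* fell as well, and *Nlgn1* was not measured. None of the 15 passed 1.5-fold between genotypes at either stage, beside the genotype shares of named genes given for the regulators.

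Of 49 other genes of the cadherin superfamily, 33 could be tested by limma, and 10 rose and 6 fell (17.2% and 20.5% of all named genes tested). Their median log2 difference was −0.07, beside −0.07 over all genes tested. *Fat4*, a giant cadherin of planar polarity, had −2.15 and −2.17 at E8.5, then 0.53 and 0.04 at E10.5 (2.45 ± 0.17 SE, limma adjusted p = 1.15e-05). *Clstn2* and *Fat3* rose by 2.15 ± 0.17 and 2.10 ± 0.22 SE (adjusted p = 2.42e-05 and 0.000134). *Cdh1*, the cadherin of epithelia, and the desmosomal *Dsg2* fell, with log2 differences of −1.76 and −1.82. *Cdh2*, the cadherin of neural tissue, was at 4.61, 4.64, 4.58 and 4.49 and was not called. Between genotypes, 1 gene of 34 was higher and 2 were lower at E8.5, beside 5.14% and 6.50% of the named genes compared. At E10.5, 2 were higher and 3 lower, beside 3.50% and 4.22%. Both falls at E8.5, *Cdh10* and *Dsg1c*, were measured on the WT array alone, with bounds of 2.54-fold and 1.69-fold. Both rises at E10.5, *Dsc2* and *Dsg3*, were measured on the array labelled *Dyrk2*-/- alone of that pair. Their bounds were 1.44-fold, below the threshold, and 1.88-fold. These 4 genes entered the counts through the array where they were high.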

How the data were processed

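Scanner output for each array came from Feature Extraction, version 10.7.1.1 per the file headers and 9.5.1.1 per the labels. Its processed intensity, as deposited, is a linear signal after background subtraction, with no scaling between arrays. A table of linear intensity values of the same 4 arrays, deposited by the authors and scaled between arrays, served as an alternative. Here the processed intensity was put on the log2 scale, outlier spots were dropped, spots of a probe were averaged and the array's 75th percentile was taken off. Each array had 62976 spots, none saturated, and 30226 to 31943 probes well above background. Precision is limited by the number of arrays. The median SD between spots of 1 probe (log2) was 0.09 and 0.12 at E8.5, WT first, and 0.07 and 0.08 at E10.5, which leaves out differences between embryos.

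Pairs of arrays were compared at 1.5-fold, with no test, over the probes well above background on either array. Bounds used floors of −4.82 and −4.53 at E8.5, then −4.72 and −4.77 at E10.5. Limma 3.58.1 (lmFit, eBayes with an intensity trend, Benjamini-Hochberg at 0.05) fitted stage and genotype to the 32289 probes that passed on 2 or more arrays, with 1 residual degree of freedom, which is the interaction. The limma fit was tested on simulated data. A gene was read by its probe of highest mean, under its name in the array annotation.

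The alternatives were quantile normalization, scaling by the median of 7 of 10 spike-in probes, no scaling, normexp with an offset of 50, the deposited table, a filter on every array, no filter, the mean over a gene's probes, a 2-fold threshold, dim probes at their bound, every probe as the unit, and limma without the trend. The rule for named genes took all single genes, the C-type genes, the 3 largest rises and falls of each cluster between stages and members past a threshold between genotypes; other members were named after their values were seen. Lists of regulators, partners, other cadherins and cell type markers were written by hand. The rule, members and lists were chosen with earlier results of these data known. A detection result for 1 gene of the lists is not reported here. R 4.3.3, Python 3.11.15, numpy 2.4.6, pandas 2.3.3 and matplotlib 3.10.9 were used.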

Additional observations from a re-analysis of the deposited data

Results flagged for a closer look

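In 2 single genes measured on all 4 arrays and past 1.5-fold at E8.5, the difference between genotypes had opposite signs at the 2 stages. *Pcdh12* had a log2 difference of 0.60 (labelled *Dyrk2*-/- minus WT) at E8.5 and of −0.39 at E10.5, which lie 0.99 apart. The median of 8 endothelial markers also changed sign, from 0.30 to −0.08, and its part in this was not tested. *Pcdh8* had 0.68 and −0.14, which lie 0.83 apart, and its second probe had 0.68 and −0.13. The median of the presomitic mesoderm and somite markers also changed sign, from 0.10 over 9 at E8.5 to −0.28 over 7 at E10.5. The part of these markers in the values of *Pcdh8* was not tested. The difference between the stages was not tested, since each stage has 1 array per genotype. With spike-in scaling the values of *Pcdh8* became 0.12 and 0.02, of the same sign, and those of *Pcdh12* 0.04 and −0.23.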

How the results depend on the processing

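Counts of protocadherin genes moved with the scaling, the background correction and the filter. At E8.5 the count of 2 higher on the array labelled *Dyrk2*-/- became 1 with quantile normalization, normexp or the deposited table, 0 with spike-in scaling, no scaling or a 2-fold threshold, 8 with no filter and 4 over every probe. The count of 0 lower became 5 with spike-in scaling and 1 with no scaling, no filter or every probe. At E10.5 the count of 0 higher became 1 with no filter, the mean over probes or every probe. The count of 2 lower became 1 with spike-in scaling or a filter on every array, 5 with no scaling, 0 with normexp or a 2-fold threshold, 7 with no filter, 4 with the mean over probes and 6 over every probe.

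Between the stages in WT, the count of 17 higher became 9 with normexp, 7 with a filter on every array and 26 over every probe, and that of 2 lower became 5 with no filter and 1 with the mean over probes or a 2-fold threshold. Between the arrays labelled *Dyrk2*-/-, the count of 14 higher became 6 with normexp, 5 with a filter on every array and 10 with dim probes at their bound. It became 18 with spike-in scaling, 17 with no filter and 20 over every probe. The count of 2 lower became 0 with spike-in scaling or the mean over probes, 1 with no scaling or a 2-fold threshold and 6 with no filter. By limma, the 15 genes higher at E10.5 became 6 with a filter on every array, which tests fewer genes, the 3 lower became 0 with spike-in scaling, and the 0 called between genotypes became 1 with no scaling. Counting every probe enlarges the unit by construction, and a 2-fold threshold can only lower a count. For the other settings the cause was not tested.

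No called stage difference and no genotype difference past 1.5-fold changed sign, but smaller ones did. The stage difference of *Pcdha8* went from −0.20 to 0.11 with spike-in scaling and 0.05 with no scaling, and that of *Pcdh11x* from 0.13 to −0.06 with normexp. Of the stage differences of named genes under the alternatives, 159 kept their side of the threshold, 18 were no longer called and 3 were newly called. Spike-in scaling ended the stage calls of *Pcdh1*, *Pcdh7*, *Pcdh8*, *Pcdh12*, *Pcdh18*, *Pcdh19* and *Pcdhac2*, although the log2 differences of *Pcdh8*, *Pcdh12*, *Pcdh18* and *Pcdhac2* grew, to 1.41, 1.57, 1.33 and 0.95. Limma without the trend ended the calls of *Pcdh8*, *Pcdh12*, *Pcdh19* and *Pcdhac2*, normexp those of *Pcdhb7* and *Pcdhac2*, and the mean over probes that of *Pcdh7*. Of the differences between genotypes, 183 moved by less than the SD used for comparison, which comes from the spots of 1 probe, and 88 by more. Spike-in scaling moved the median of all probes by −0.56 at E8.5, 0.16 at E10.5, −0.06 between stages in WT and 0.67 between the arrays labelled *Dyrk2*-/-, and no scaling moved it by −0.26, −0.13, 0.18 and 0.31. With spike-in scaling 2.6% of the named genes past the threshold at E8.5 were higher, against 44.1% with the 75th percentile, and between the arrays labelled *Dyrk2*-/- 92.3%, against 55.8%. Signal over background limits the 26 members not measured on any array, for which no difference can be given.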

Other observations

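A probe outside the family by gene name, *Gm10545*, was not measured on any array. Its log2 values were −6.95 in WT and −6.65 on the array labelled *Dyrk2*-/- of E8.5, and −6.84 and −6.90 on those of E10.5.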
